A study of Mus musculus with 6 samples.

Results

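The collagen genes of mouse neural progenitor cells were examined on 6 arrays, 3 from cells that over-express Sox3 and 3 from control cells. Members were the genes whose symbol reads Col, a number, the letter a and a number, after the RefSeq transcript names of the array rows had been matched to mouse gene symbols. Of 44 such genes in the reference gene table, 37 were measured, out of 15302 named genes on the arrays, and each was represented by its row with the highest mean over the 6 arrays. They were grouped by collagen type into 11 fibrillar genes, 6 basement membrane genes (type 4) and 20 genes of other types. The other 7, Col6a3, Col6a5, Col6a6, Col12a1, Col20a1, Col22a1 and Col28a1, were matched to no row and not analysed here.

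Both groups were neural progenitor cells made from mouse embryonic stem (ES) cells that carried a Sox1-GFP reporter, Sox1 being a gene of early neural progenitors. The genotype of the controls was Sox1-GFP, and that of the Sox3 cells Sox1-GFP and Nestin-Sox3, a construct named for Nestin, another progenitor gene, and not described further in the labels. All were grown as monolayers with B27 and N2, received 0.5 µM all-trans retinoic acid on days 0 and 2, and were sorted by FACS on day 4. Each group held 3 samples labelled as biological replicates. The labels do not say whether a genotype was 1 ES cell clone or several, so a difference between clones cannot be told apart from one between genotypes. Whether the replicates were separate cultures is also not stated, so p-values measure the spread between these samples, which may be technical.

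Collagens are secreted or membrane-bound proteins built from 3 chains that wind into a triple helix wherever glycine stands at regular intervals in the sequence. Fibrillar collagens assemble into the banded fibres of connective tissue, whereas type 4 collagen forms the sheet-like scaffold of basement membranes. Other types decorate fibrils, form short networks or beaded filaments, or span the cell membrane. The neural tube is an epithelium that rests on a basement membrane, and fibrillar types 1 and 3 are known chiefly as products of mesenchymal cells.

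On all 6 arrays the median log2 signal was between 6.85 and 6.87, and control replicate 3 had the widest interquartile range, 3.17 against 2.89 to 3.02 on the others. Sox3 was at 9.20, 9.23 and 9.22 on the Sox3 arrays and at 7.59, 7.52 and 7.25 on the control arrays, so the transgenic group was the high one (log2 difference 1.76 ± 0.08, SE; limma adjusted p = 0.000189). Of 10 progenitor markers 9 were measured. Sox2 (means 11.60 and 11.97 in Sox3 and control cells) and Vim (12.2 and 12.1) had high signals, while Pax6 (5.86 and 6.05) and Hes5 (5.63 and 5.59) had low signals, Hes5 among the 3825 dimmest named genes. Sox1 itself had means of 6.86 and 6.96, and Pou5f1, a gene of pluripotent cells, 10.59 and 10.57. There is no detection call, and signals of different rows cannot be set against each other as levels of RNA.

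Of the 37 collagen genes, 2 fell in the Sox3 cells and 0 rose. A gene is counted as fallen or risen where limma's adjusted p, by Benjamini and Hochberg over all 21876 rows tested, was under 0.05. Over all 15302 named genes 1.27% rose and 2.67% fell by the same test. Both genes that fell are fibrillar, Col1a2 and Col3a1. No type 4 gene passed, although Col4a1 and Col4a2 were higher on every Sox3 array than on every control array, and none of the other types passed. At an unadjusted p under 0.05, 6 collagen genes were higher and 5 lower, 11 of 37, beside 23.8% of all named genes in either direction. None of the 37 differed by 1.5-fold or more, and 20 differed by less than 0.1 on the log2 scale.

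**Figure D1:**
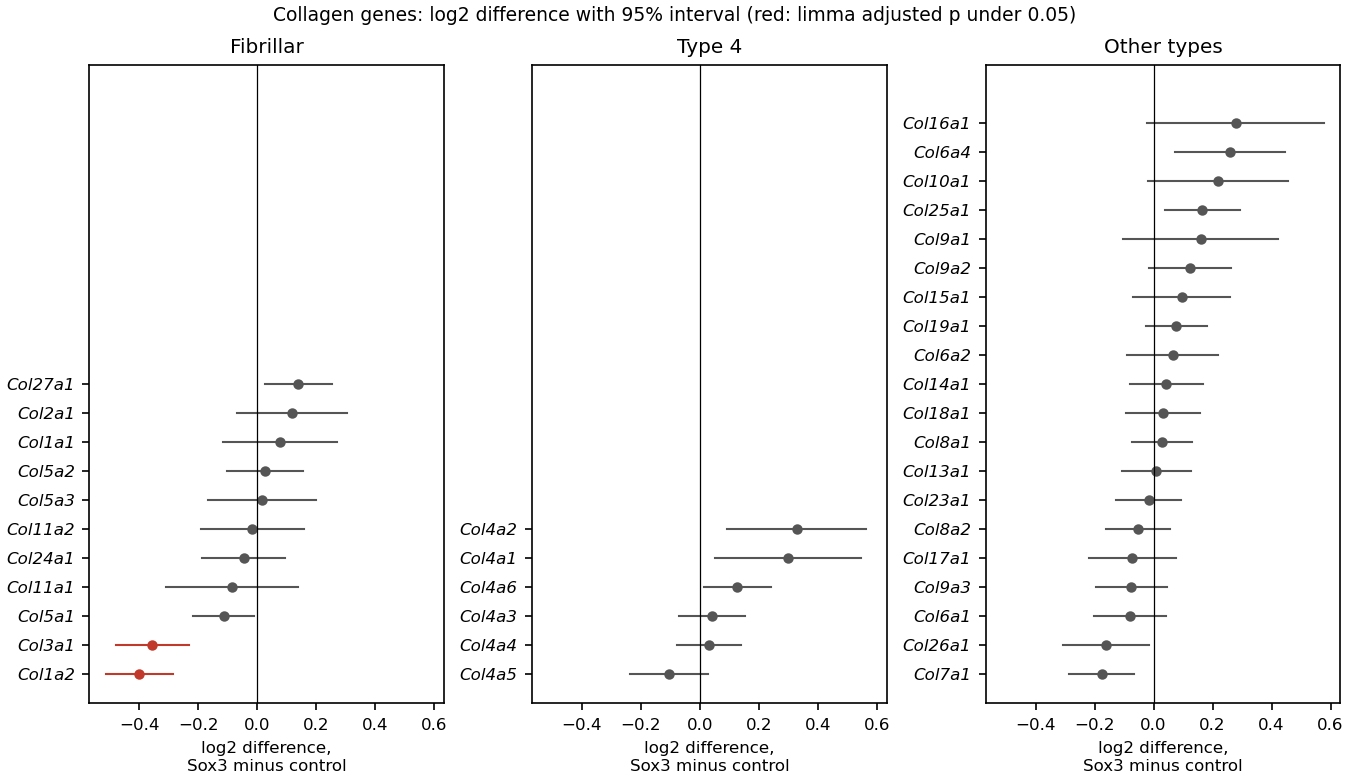
Log2 difference (Sox3 minus control, horizontal axis) of each of the 37 collagen genes with its 95% interval from limma, in 3 panels for fibrillar, type 4 and other types. Red marks Col1a2 and Col3a1, the genes with an adjusted p under 0.05; Col4a2 and Col4a1 stand at the top of the type 4 panel with intervals above 0 but in grey, since they did not pass.

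Every Sox3 value exceeded every control value for 7 of the 37 genes, beside 13.1% of all named genes. Every Sox3 value was under every control value for 4, beside 18.3%, and the arrays of the other 26 overlapped. The median log2 difference was -0.02 over the fibrillar genes, 0.08 over type 4 and 0.04 over the other types, and 0.00 over all named genes. These medians are descriptions, and the fibrillar one was 0.05 without control replicate 1. After quantile normalization or cyclic loess the type 4 median was 0.042 or 0.044 and that of the other types 0.044 or 0.048. Many collagen rows were dim: 17 of 37 were among the 3825 dimmest of the named genes by mean signal. Over the 7651 dimmer named genes the median difference was 0.04, and over the 7651 brighter ones -0.06. Control replicate 3 held the lowest of the 6 values for 15 of the 37 collagen genes, 40.5%, and for 45.6% of those 7651 dimmer genes. The part of this array in the collagen differences was not tested, apart from the fits without it.

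Col1a2 encodes the α2 chain of type 1 collagen, the main collagen of bone, skin and tendon. Its log2 signal was 6.63, 6.59 and 6.59 on the Sox3 arrays and 6.95, 7.06 and 7.002 on the control arrays. The groups were well apart, with a gap larger than the whole spread within either. Col1a2 fell 1.32-fold, with a log2 difference of -0.40 ± 0.05 (SE over 3 arrays a group) and a limma adjusted p of 0.00768. The call held in all 6 fits that left out 1 array, with limma adjusted p from 0.0159 to 0.0456.

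Col3a1 encodes the single chain of type 3 collagen, which is found with type 1 in extensible tissues such as skin and vessel walls. It was at 5.54, 5.599 and 5.54 on the Sox3 arrays and at 5.84, 5.98 and 5.92 on the control arrays. These groups too were fully separated, though the row was among the 3825 dimmest, where RMA is known to compress fold changes. Col3a1 fell by 0.35 ± 0.05 (SE, n = 3 a group) on the log2 scale, 1.28-fold, with a limma adjusted p of 0.0153. With 1 array left out, the difference stayed between -0.39 and -0.32, and the call held in 2 of the 6 fits. The limma adjusted p of Col3a1 was 0.0711, 0.0575 and 0.057 without Sox3 replicate 1, 2 and 3 in turn, and 0.0575 without control replicate 2. Calls were lost in general: such fits called 138 to 362 of all named genes, against 603 with every array. In bulk RNA, fewer cells of a type and less RNA per cell cannot be told apart.

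Col1a1, which encodes the α1 chain that pairs with Col1a2 in the type 1 trimer, did not pass. It was at 5.68, 5.51 and 5.49 on the Sox3 arrays and at 5.63, 5.49 and 5.34 on the control arrays, so the groups overlapped. The difference was 0.08 ± 0.08 (SE), with a 95% interval from -0.12 to 0.27 and a limma adjusted p of 0.598. Within each array, Col1a2 minus Col1a1 was 0.95, 1.08 and 1.10 on the Sox3 arrays and 1.32, 1.58 and 1.67 on the control arrays. The pair was compared after the calls were known, and the Col1a1 row is among the 3825 dimmest. The group means of this within-array quantity differed by -0.48. The exact two-sided permutation test over the arrays gave p = 0.10, the smallest value that 3 against 3 allows (0.20 adjusted over the 2 chain pairs compared).

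The promoters of the fallen pair are shown because both genes moved the same way. They run from 250 bases before to 50 after the annotated start, from RefSeq (GRCm38.p6), for Col1a2 at chr6:4505368-4505667 and Col3a1 at chr1:45311288-45311587, both on the plus strand. Capitals mark matches, on either strand, to ACAAAG or ACAATG (cores bound by Sox proteins), CCAAT or GGGCGG (the GC box).

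Col1a2: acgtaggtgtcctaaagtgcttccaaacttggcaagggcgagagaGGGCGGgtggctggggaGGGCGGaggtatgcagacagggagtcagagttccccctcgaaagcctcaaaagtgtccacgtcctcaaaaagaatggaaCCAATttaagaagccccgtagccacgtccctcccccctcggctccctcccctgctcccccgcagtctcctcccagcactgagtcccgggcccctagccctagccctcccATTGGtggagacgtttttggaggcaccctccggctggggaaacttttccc

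Col3a1: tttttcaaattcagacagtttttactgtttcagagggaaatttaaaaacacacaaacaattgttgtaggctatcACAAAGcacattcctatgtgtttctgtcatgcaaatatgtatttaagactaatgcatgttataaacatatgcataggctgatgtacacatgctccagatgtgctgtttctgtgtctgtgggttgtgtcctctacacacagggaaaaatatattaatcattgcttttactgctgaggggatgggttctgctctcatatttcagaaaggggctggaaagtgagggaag

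The Col1a2 window held CCAAT letters 2 times and GGGCGG 2 times, and neither Sox-type core. Col3a1 held ACAAAG 1 time and none of the other letters searched, and its GC content was 37.7% against 61% for Col1a2. ACAAAG occurs in 18.7% of all 32851 promoter windows, ACAATG in 12.6%, CCAAT in 37.4% and GGGCGG in 35.7%. Among the 30 measured collagen genes that had a window, 3 held ACAAAG (Col3a1, Col10a1 and Col17a1), 0 held ACAATG, 13 held CCAAT and 20 held GGGCGG. These are counts of genes with a match in any of their windows, whereas the percentages are shares of windows. A match describes letters only, and no binding was measured here.

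The other 8 fibrillar genes did not pass, with limma adjusted p of at least 0.141. Col5a1, a chain of the type 5 collagen that starts type 1 fibrils, was at 7.61, 7.63 and 7.67 on the Sox3 arrays and at 7.76, 7.76 and 7.74 on the control arrays. The groups did not overlap, but the gap was small (difference -0.11 ± 0.04, SE; limma adjusted p = 0.179). Its partner chains differed by 0.03 ± 0.06 (Col5a2) and 0.02 ± 0.08 (Col5a3) (SE), with overlapping arrays. Col27a1, which encodes a fibrillar collagen of cartilage, was at 7.01, 7.03 and 6.93 against 6.83, 6.87 and 6.85, higher on each Sox3 array (0.14 ± 0.05, SE; limma adjusted p = 0.141).

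Col2a1, the cartilage collagen gene that is also transcribed in the early neural epithelium, had the highest mean signal of the fibrillar rows. Its values were 8.20, 8.07 and 8.19 on the Sox3 arrays and 8.16, 8.09 and 7.87 on the control arrays, which overlapped (difference 0.12 ± 0.08, SE; limma adjusted p = 0.409). Of the type 11 chains, which start type 2 fibrils in cartilage, Col11a1 differed by -0.08 ± 0.10 and Col11a2 by -0.02 ± 0.08 (SE), both with overlapping arrays. Col11a1 spread widely in the controls, from 6.22 in replicate 1 to 6.64 in replicate 3. Col24a1, whose row had the lowest mean signal of all 37, 4.71, differed by -0.05 ± 0.06 (SE).

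**Figure D2:**
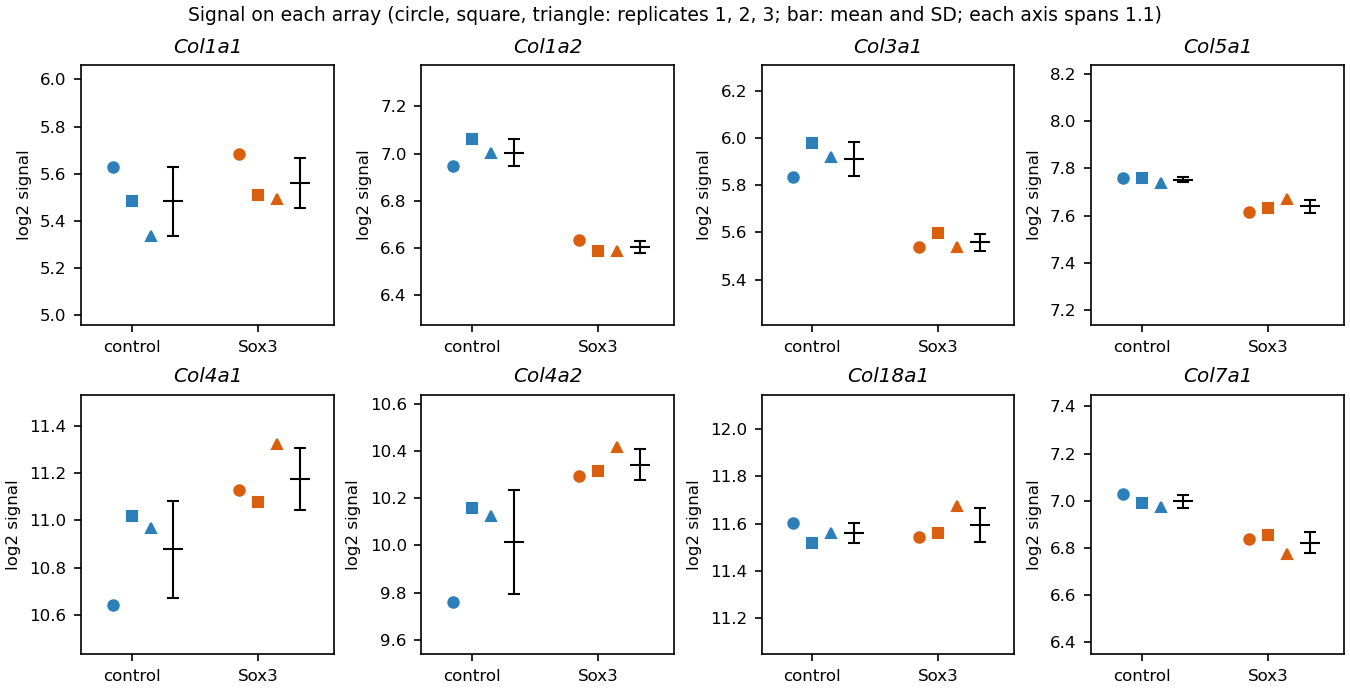
Log2 signal of 8 collagen genes on each array (vertical axes, each spanning 1.1), with control arrays in blue, Sox3 arrays in orange, replicates 1 to 3 as circle, square and triangle, and the bar as mean and SD. Col1a2 and Col3a1 are lower in all Sox3 arrays while Col1a1 overlaps, and control replicate 1 lies far below the other controls for Col4a1 and Col4a2.

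Col4a1 and Col4a2 encode the chains that join in a common trimer in nearly every basement membrane. Col4a1 was at 11.13, 11.08 and 11.32 on the Sox3 arrays and at 10.64, 11.02 and 10.97 on the control arrays. Col4a2 was at 10.29, 10.31 and 10.42 and at 9.76, 10.16 and 10.12. For both genes every Sox3 array was above every control array, but control replicate 1 stood apart below the other 2 controls.

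The differences were 0.30 ± 0.11 for Col4a1 (SE, n = 3 per group; 1.23-fold; 95% interval 0.05 to 0.55; limma adjusted p = 0.152) and 0.33 ± 0.10 for Col4a2 (1.25-fold; 95% interval 0.09 to 0.56; limma adjusted p = 0.115). Neither passed. Without control replicate 1 they were 0.18 and 0.20, with limma adjusted p of 0.223 and 0.121. With array weights they were 0.20 and 0.26. Over all alternative settings the difference ran from 0.18 to 0.39 for Col4a1 and from 0.20 to 0.41 for Col4a2. In none of the 17 alternative settings was either gene called, and the lowest limma adjusted p was 0.0776 for Col4a1 (quantile normalization) and 0.0578 for Col4a2 (cyclic loess).

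The pair shared its lowest and its highest array. On the Sox3 arrays, though, Col4a2 minus Col4a1 varied about as much as Col4a2 itself (SD 0.072 and 0.066). Within each array, Col4a2 minus Col4a1 was -0.83, -0.76 and -0.91 on the Sox3 arrays and -0.88, -0.86 and -0.84 on the control arrays. These values overlapped and differed by 0.03 between the groups (exact two-sided permutation p = 0.60; 0.60 adjusted over the 2 chain pairs). Control replicate 1 was the lowest and Sox3 replicate 3 the highest array for both genes, and for Col4a6 as well.

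Genes of parietal and primitive endoderm, cells known for making much type 4 collagen, were set beside these values. The 14 markers listed are mixed and include genes active in visceral endoderm, such as Cubn, Foxa2, Afp and Ttr. Of the 14, these 4 fell and 0 rose, beside 2.67% and 1.27% of all named genes. By sign alone 8 were lower and 6 higher, so the count of calls does not describe the list as a whole. At an unadjusted p under 0.05, 7 were lower and 2, Gata4 and Gata6, higher, beside 23.8% of all named genes in either direction. Cubn differed by -0.999 ± 0.14, Foxa2 by -0.57 ± 0.11, Afp by -0.56 ± 0.09 and Ttr by -0.29 ± 0.05 (log2, SE). The log2 of their summed signal ran from 12.5 to 12.8 in Sox3 cells and from 12.5 to 12.9 in control cells. No marker is at 0 on this scale; Afp had the lowest mean, 5.22. Control replicate 1 held the lowest value of the 6 arrays for 6 of these 14 markers, against 12.7% of all named genes. One of them is Gata6, a GATA factor of primitive endoderm, at 8.37, 8.32 and 8.62 on the Sox3 arrays and 7.82, 8.17 and 8.28 on the control arrays (difference 0.35 ± 0.12, SE; limma adjusted p = 0.148). Another is Sox7, at 9.85, 9.96 and 10.11 against 9.65, 10.03 and 10.12 (0.04 ± 0.12, SE; limma adjusted p = 0.861). Lama1, Sox17 and Gata4 differed by 0.04 ± 0.11, 0.08 ± 0.13 and 0.26 ± 0.09 (SE), with overlapping arrays. The cells had been sorted by FACS, and the sample descriptions carry the mark Sox1+. The part of endoderm cells in the type 4 values was not tested.

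The windows around the starts of Col4a1 and Col4a2 are shown because the genes lie head to head, and the letters they share are in capitals. They are at chr8:11312777-11313076 on the minus strand and chr8:11312555-11312854 on the plus strand (RefSeq, GRCm38.p6), and 78 bases, chr8:11312777-11312854, belong to both, read from opposite strands.

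Col4a1: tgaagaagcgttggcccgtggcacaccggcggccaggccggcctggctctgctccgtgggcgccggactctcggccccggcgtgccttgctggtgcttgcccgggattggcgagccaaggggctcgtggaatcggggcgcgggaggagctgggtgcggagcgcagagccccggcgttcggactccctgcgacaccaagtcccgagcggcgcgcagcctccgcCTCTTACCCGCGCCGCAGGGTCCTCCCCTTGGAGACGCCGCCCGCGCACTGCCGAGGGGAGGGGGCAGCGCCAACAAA

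Col4a2: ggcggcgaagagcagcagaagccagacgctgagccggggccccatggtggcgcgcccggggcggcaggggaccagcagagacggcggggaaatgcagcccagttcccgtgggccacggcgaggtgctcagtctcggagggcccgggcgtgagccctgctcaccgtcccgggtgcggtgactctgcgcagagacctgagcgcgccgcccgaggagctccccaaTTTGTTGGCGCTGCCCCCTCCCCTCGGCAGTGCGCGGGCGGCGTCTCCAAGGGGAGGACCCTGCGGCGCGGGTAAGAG

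Both windows are rich in G and C, 74% and 73.7%. Col4a1 held CCAAT letters 1 time and GGGCGG 1 time, and Col4a2 held them 1 time and 3 times. Neither held ACAAAG or ACAATG.

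The other 4 type 4 chains had dim rows. Col4a3 and Col4a4, chains of the kidney filter and inner ear basement membranes, differed by 0.04 ± 0.05 and 0.03 ± 0.05 (SE), with overlapping arrays. Col4a5 and Col4a6, a pair of X-linked chains, went in opposite directions. Col4a6 was at 5.63, 5.603 and 5.72 on the Sox3 arrays and at 5.51, 5.53 and 5.53 on the control arrays, without overlap (0.13 ± 0.05, SE; limma adjusted p = 0.178). Col4a5 was at 5.44, 5.39 and 5.37 and at 5.42, 5.51 and 5.60, which overlapped (-0.11 ± 0.06, SE; limma adjusted p = 0.305). Neither passed.

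None of the 20 collagen genes of other types passed, and 16 had overlapping arrays, beside 10507 of all 15302 named genes. Of the multiplexins, which are basement membrane collagens that carry sugar chains, Col18a1, the source of the fragment endostatin, was at 11.54, 11.56 and 11.68 on the Sox3 arrays and at 11.60, 11.52 and 11.56 on the control arrays. Its row had the highest mean signal of all 37, and the groups overlapped (0.03 ± 0.05, SE; 95% interval -0.09 to 0.16; limma adjusted p = 0.736). Col15a1 differed by 0.10 ± 0.07 (SE; limma adjusted p = 0.442).

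Col7a1, which encodes the anchoring fibrils that tie epithelial basement membranes to connective tissue, came nearest to passing. It was at 6.84, 6.86 and 6.77 on the Sox3 arrays and at 7.03, 6.99 and 6.98 on the control arrays, without overlap (-0.18 ± 0.05, SE; limma adjusted p = 0.0838). Of the type 6 chains, which form beaded filaments, Col6a4 was at 6.75, 6.66 and 6.49 against 6.47, 6.40 and 6.26. Every Sox3 array lay above every control array, narrowly (0.26 ± 0.08, SE; limma adjusted p = 0.117). Col6a1 and Col6a2, chains of the same trimers, differed by -0.08 ± 0.05 and 0.06 ± 0.07 (SE), with overlapping arrays.

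The 4 transmembrane collagens differed by 0.16 ± 0.06 (Col25a1), 0.01 ± 0.05 (Col13a1), -0.02 ± 0.05 (Col23a1) and -0.07 ± 0.06 (Col17a1, of hemidesmosomes) (SE). Col25a1, a collagen made by neurons, was at 7.43, 7.43 and 7.37 on the Sox3 arrays and at 7.33, 7.20 and 7.20 on the control arrays, without overlap (limma adjusted p = 0.133). A second row for Col25a1 gave 6.91, 6.88 and 6.77 against 6.82, 6.68 and 6.62, a difference of 0.15 ± 0.07 (SE; limma adjusted p = 0.225), with overlap.

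Col16a1 had the largest difference among the fibril-associated (FACIT) collagens, which attach to the surface of fibrils. It was at 8.45, 8.14 and 8.10 on the Sox3 arrays and at 8.16, 7.996 and 7.70 on the control arrays, which overlapped (0.28 ± 0.13, SE; limma adjusted p = 0.248). Without control replicate 3 the difference was 0.15, and without Sox3 replicate 1 it was 0.17. The type 9 chains, which coat type 2 fibrils, differed by 0.16 ± 0.11 (Col9a1), 0.12 ± 0.06 (Col9a2) and -0.08 ± 0.05 (Col9a3) (SE), all with overlap, and that of Col9a1 was 0.05 without control replicate 3 and 0.06 without Sox3 replicate 1. Col14a1 differed by 0.04 ± 0.05 (SE) and Col19a1 by 0.08 ± 0.05 (SE); Col19a1 had no overlap between the groups but a limma adjusted p of 0.335.

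Of the short-chain network collagens, Col10a1, a product of hypertrophic cartilage, differed by 0.22 ± 0.10 (SE; limma adjusted p = 0.251), and by 0.10 without control replicate 3. Col8a1 and Col8a2, chains of endothelial basement membranes, differed by 0.03 ± 0.04 and -0.05 ± 0.05 (SE). Col26a1 differed by -0.16 ± 0.06 (SE; limma adjusted p = 0.181). All 4 had overlapping arrays.

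**Figure D3:**
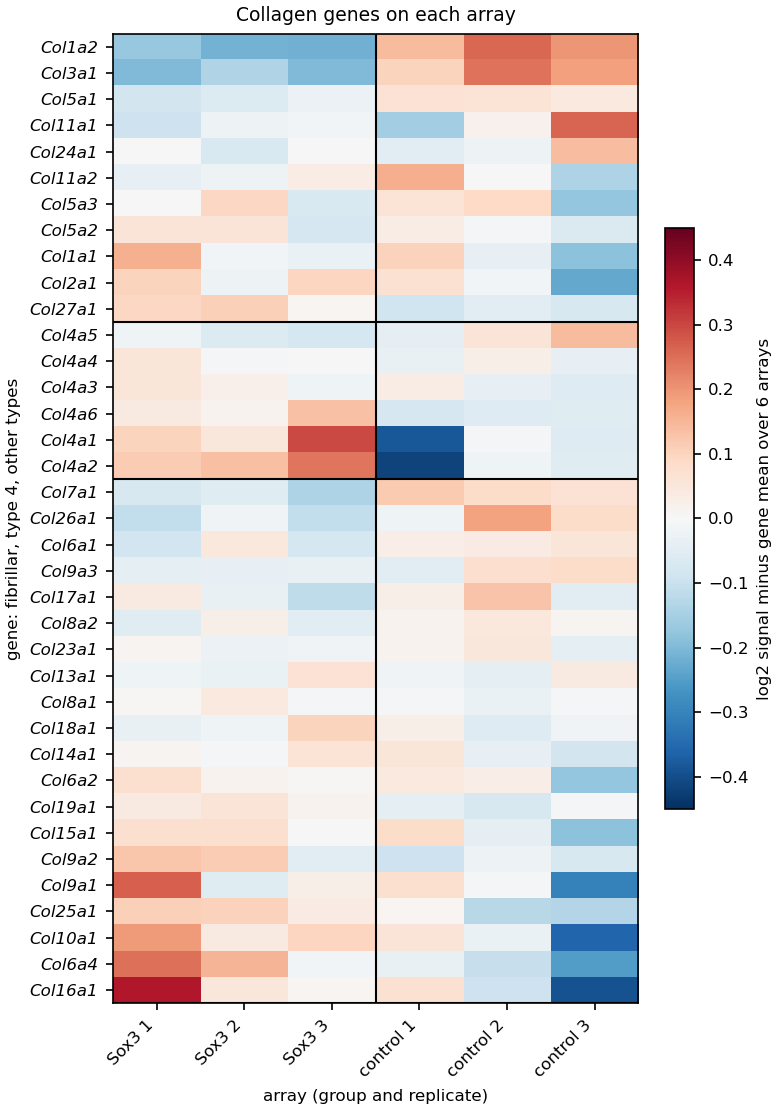
Log2 signal of each collagen gene (rows) on each array (columns) minus its mean over the 6 arrays, in colour from blue (lower) to red (higher), with lines between the 3 classes and the 2 groups. Col1a2 and Col3a1 are blue on all Sox3 arrays, and Col4a1 and Col4a2 are darkest blue in control replicate 1. Control replicate 3 is blue for several rows of other types, such as Col10a1, Col6a4 and Col16a1.

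Enzymes and chaperones of collagen maturation went both ways. Of 34 genes listed, 28 were measured; 2 rose, 2 fell and 24 did not pass, beside 1.27% of all named genes that rose and 2.67% that fell. Among the 6 not analysed here were the subunit gene P4ha3 and Pxdn, which cross-links type 4 collagen. At an unadjusted p under 0.05, 3 were higher and 6 lower, 9 of 28, beside 23.8% of all named genes. The median log2 difference of the 28 was -0.02, against 0.00 over all named genes.

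The fallen pair, P4ha1 and P4ha2, encodes catalytic subunits of prolyl 4-hydroxylase, which makes the hydroxyproline that keeps the triple helix stable. P4ha2 was at 8.59, 8.60 and 8.89 on the Sox3 arrays and at 9.12, 9.08 and 9.18 on the control arrays, and fell 1.35-fold (-0.43 ± 0.08, SE; limma adjusted p = 0.0339). P4ha1 was at 7.53, 7.62 and 7.65 against 7.79, 7.90 and 7.99, and fell 1.23-fold (-0.30 ± 0.06, SE; limma adjusted p = 0.0482). Neither gene's arrays overlapped between the groups. Their shared partner P4hb differed by -0.08 ± 0.06 (SE; limma adjusted p = 0.504).

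The genes that rose act outside the cell. Bmp1 encodes the protease that removes the C-terminal propeptides of fibrillar procollagens, and Pcolce an enhancer of that cleavage. Bmp1 was at 7.57, 7.56 and 7.66 on the Sox3 arrays and at 7.30, 7.31 and 7.32 on the control arrays, and rose 1.22-fold (0.29 ± 0.05, SE; limma adjusted p = 0.023). Pcolce was at 7.73, 7.69 and 7.85 against 7.45, 7.49 and 7.51, and rose 1.21-fold (0.27 ± 0.06, SE; limma adjusted p = 0.0427). Both were higher on every Sox3 array than on every control array.

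These 4 differences kept their sign in every alternative, but the calls were mostly lost with 1 array left out. Over all named genes such fits made 138 to 362 calls, against 603 with every array. With 1 array left out, Pcolce was never called, Bmp1 was called only without control replicate 3, P4ha1 only without control replicate 1 and P4ha2 only without Sox3 replicate 3. Their limma adjusted p reached 0.121, 0.075, 0.164 and 0.121 in that order. Serpinh1, the collagen chaperone HSP47, differed by -0.16 ± 0.08 (SE; limma adjusted p = 0.266), with overlap.

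Among 28 genes of collagen receptors, binding proteins and turnover, 25 were measured; 0 rose, 2 fell and 23 did not pass, beside the same 1.27% and 2.67%. At an unadjusted p under 0.05, 3 were higher and 3 lower, 6 of 25, beside 23.8% of all named genes. Mmp2, a gelatinase that degrades denatured and type 4 collagen, was at 9.26, 9.36 and 9.48 on the Sox3 arrays and at 9.82, 9.76 and 9.89 on the control arrays. It fell 1.37-fold (-0.46 ± 0.07, SE; limma adjusted p = 0.0137). Mrc2, the endocytic receptor that takes up collagen fragments, was at 7.85, 7.91 and 7.95 against 8.14, 8.17 and 8.12, and fell 1.18-fold (-0.24 ± 0.05, SE; limma adjusted p = 0.0389). Both were lower on every Sox3 array. Leaving out Sox3 replicate 1 or 2 ended the call of Mmp2 (limma adjusted p = 0.0572 and 0.0638), and leaving out any 1 of the 6 arrays ended that of Mrc2 (up to 0.138). Fits without 1 array called 138 to 362 of all named genes, against 603 with every array. The Mrc2 call was also lost with the replicate number as a block (limma adjusted p = 0.0653).

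Mmp14, a membrane-bound collagenase that also activates the Mmp2 protein, was at 7.49, 7.34 and 7.48 on the Sox3 arrays and at 7.26, 7.21 and 7.08 on the control arrays. It was higher on every Sox3 array but did not pass (0.25 ± 0.07, SE; limma adjusted p = 0.0777). The collagen receptor genes Itgb1, Ddr1 and Ddr2 differed by 0.12 ± 0.06, 0.03 ± 0.06 and -0.01 ± 0.05 (SE), with overlapping arrays.

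**Figure D4:**
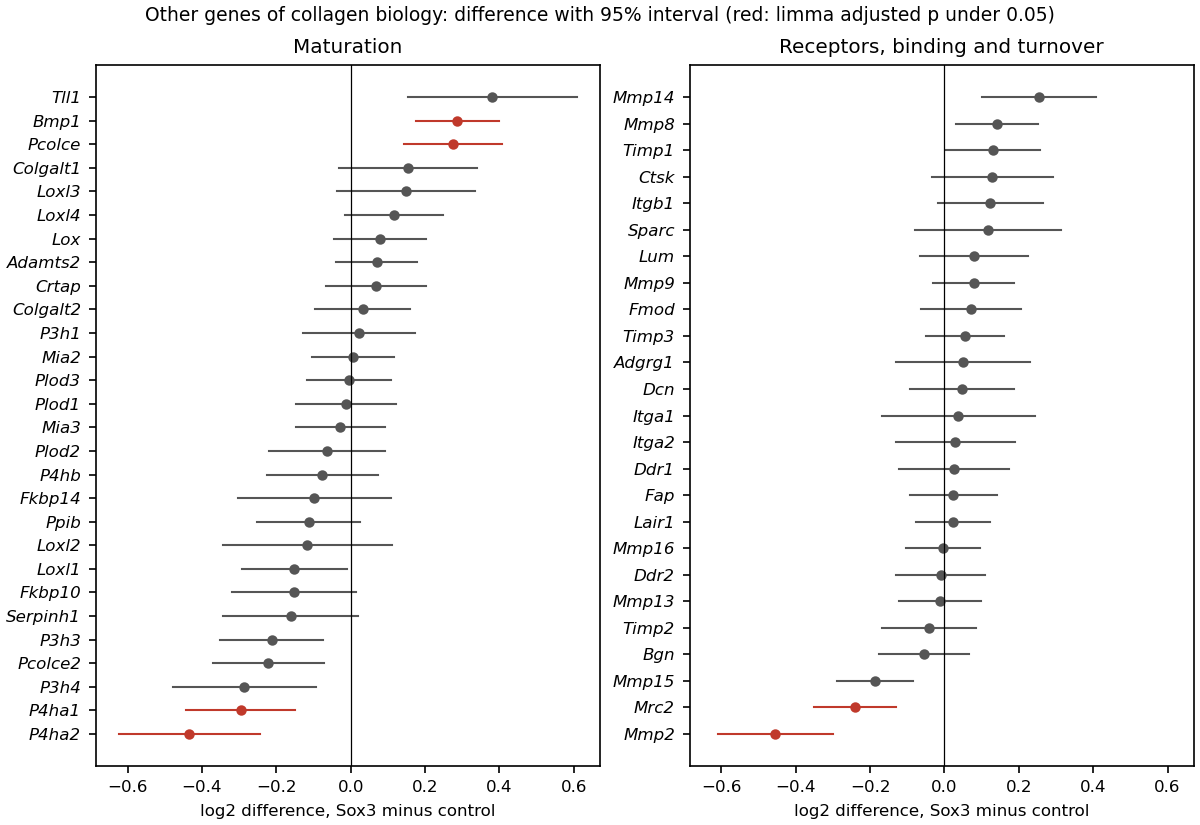
Log2 difference (Sox3 minus control, horizontal axis) with 95% interval for 28 maturation genes (left) and 25 receptor, binding and turnover genes (right), ordered by difference. Red marks the 6 genes with a limma adjusted p under 0.05: Bmp1 and Pcolce are higher, and P4ha1, P4ha2, Mmp2 and Mrc2 lower.

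Of 14 markers of mesenchyme, the cells best known for collagen types 1 and 3, 3 fell (Meox1, Foxc2 and Fn1, which encodes fibronectin), beside 2.67% of all named genes, 0 rose and the other 11 did not pass. The log2 of the summed signal of all 14 ran from 12.62 to 12.71 in Sox3 cells and from 12.91 to 13.002 in control cells, without overlap. Such a sum follows its brightest rows, and Fn1 had the highest mean signal among the 14, 12.23. The median log2 difference of the 14 was -0.005, and 9 of them differed by less than 0.1. At an unadjusted p under 0.05, 0 were higher and 4 lower, beside 23.8% of all named genes in either direction. Meox1 fell by 0.64 ± 0.09 and Foxc2 by 0.48 ± 0.05 (SE; limma adjusted p = 0.0118 and 0.00422). Fn1 fell by 0.31 ± 0.05 (SE; limma adjusted p = 0.0164). Twist1 and Prrx2 differed by 0.02 ± 0.08 and 0.00 ± 0.11 (SE), and Meox2 (4.64 and 4.69) and Prrx1 (5.13 and 5.10) were near the lowest signals on the arrays. The part of mesenchyme cells in the collagen values was not tested.

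Among the 9 progenitor markers Sox2 fell (-0.37 ± 0.06, SE; limma adjusted p = 0.0241), beside 2.67% of all named genes, and the other 8 did not pass. At an unadjusted p under 0.05, 2 of the 9 were higher and 3 lower, beside 23.8% of all named genes in either direction. The largest difference of the 9 was that of Fabp7, at 6.73, 7.27 and 6.33 on the Sox3 arrays and 5.996, 5.99 and 6.04 on the control arrays, without overlap (0.77 ± 0.20, SE; limma adjusted p = 0.0741). Of 9 neural crest markers Foxd3 rose (0.36 ± 0.08, SE; limma adjusted p = 0.0447), beside 1.27% of all named genes, and 8 did not pass. At an unadjusted p under 0.05, 2 of these crest markers were higher and 0 lower. No call was made by limma among 9 pluripotent, 8 endothelial and 10 neuron markers. Of these, 4, 1 and 4 had an unadjusted p under 0.05, beside 23.8% of all named genes. Over the 6 arrays the pluripotent rows had mean signals from 7.92 (Klf4) to 13.54 (Dppa5a), with Zfp42 at 12.62 and Pou5f1 at 10.58. The largest differences in these lists were -0.46 (Tdgf1) and 0.38 (Utf1) among pluripotent, 0.16 (Tek) and 0.16 (Esam) among endothelial, and -0.51 (Tubb3) and -0.33 (Nefl) among neuron markers. The log2 of summed signal overlapped between the groups for the progenitor, neural crest and pluripotent lists. It ran from 9.39 to 9.45 in Sox3 and from 9.26 to 9.35 in control cells for endothelial markers, and from 10.94 to 11.04 against 11.13 to 11.26 for neuron markers, without overlap. Control replicate 3 held the lowest value for 5 of the 8 endothelial markers, beside 28.5% of all named genes and 45.6% of the 7651 dimmer ones. The part of this array in the endothelial sum was not tested.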

How the data were processed

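Total RNA was biotin-labelled and hybridized to Affymetrix arrays, 1 per sample (labels' protocols). The authors deposited log2 expression values; the submitters' processing notes name Affymetrix Power Tools and RMA, which corrects background, quantile-normalizes arrays and summarizes probes, and compresses the fold changes of dim genes. The array type, the software versions and how probes were assigned to rows were not given in the sources used. The number of arrays limits the precision.

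Of 21940 rows, 64 array controls were left out and 21876 tested. RefSeq accessions were matched without version to a gene table (GRCm38.p6) for names only, which gave 1 symbol for 17123 rows (15302 genes) and none for 4753. For 3 collagen genes (Col2a1, Col18a1 and Col25a1) there was a second row, which held the same values as the first for Col2a1 and for Col18a1.

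The test was limma 3.58.1 under R 4.3.3 (lmFit and eBayes, no block, no filter, two-sided, Benjamini-Hochberg over all rows, threshold 0.05). The procedure was tested on simulated data. Every collagen gene is accounted for. From each list, called members were named, or else the 2 with the largest differences; other list members were named after their values were seen. Members, classes and lists were chosen with earlier results of these data known. Chain pairs were compared by an exact permutation test over arrays, a comparison added after the values were seen. Alternatives were normalization, signal filters, variance model, array weights, replicate block, row choice, a stricter threshold and leaving out each array. Protein sequences were not used here.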

Additional observations from a re-analysis of the deposited data

How the results depend on the processing

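Col1a2 kept its direction and its call in all 16 alternatives that tested it (limma adjusted p 0.000869 to 0.0456); Col3a1 kept its direction in 16 and its call in 11. Of the 37 collagen genes 24 kept their sign in every alternative, and 32 were called in none. Collagen genes called higher numbered 0, but 2 with array weights (Col6a4 and Col25a1) and 1 with the replicate block (Col6a4, limma adjusted p = 0.0476). Those called lower numbered 2, but 1 at an adjusted p under 0.01, 1 to 2 with an array left out, and 0 when rows under the median signal were left out, which removes both genes by construction; array weights added Col7a1 for 3. Maturation genes called higher numbered 2, but 1 under median centring or the trend and robust variance, 3 with array weights (Tll1 added), 0 at 0.01, and 0 to 2 with an array left out (the 2 without control replicate 3 were Bmp1 and Tll1). Those called lower numbered 2, but 1 under median centring or the trend and robust variance, 4 with array weights, 0 at 0.01, and 0 to 1 with an array left out. Receptor, binding and turnover genes called higher numbered 0, but 1 with array weights (Mmp8). Those called lower numbered 2, but 1 under the trend and robust variance or the replicate block, 3 with array weights (Mmp15 added), 0 at 0.01, and 0 to 1 with an array left out. Quantile normalization and cyclic loess exchanged Mrc2 for Mmp15. The type 4 median was 0.042 after quantile normalization and 0.044 after cyclic loess; with an array left out the fibrillar median ran from -0.038 to 0.0498 (without control replicate 1). Over all named genes, risen genes made up 32.3% of calls, 43.0% after quantile normalization and 44.5% after cyclic loess. Calls numbered 603 in all, 1583 with array weights, 106 at 0.01 and 138 to 362 with an array left out. Replicate numbers were not treated as pairs: deviations of same-numbered arrays correlated at 0.29, -0.21 and 0.09. The cause of other changes was not tested.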
